A study of Mus musculus with 95 samples.

Results

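Pancreatic islet RNA-seq libraries with the highest level of Hspa5 mRNA were set against those with the lowest. Hspa5 encodes BiP, the abundant Hsp70-type chaperone of the endoplasmic reticulum (ER). The libraries were chosen by their Hspa5 CPM (its count as a share of the total of the library, put on a common scale): the 15 highest of 95 are called High and the 15 lowest are called Low, which leaves 65 that were not chosen. All libraries came from islets of founder strains of the Diversity Outbred mouse population, and all mice were kept on a high-fat, high-sugar diet given as 45% fat in the labels, so High and Low share that diet. No label used here ties a library to a strain, sex, age or treatment arm, so High and Low are selected on a readout and are not groups of the study. Libraries are called by the number in their label, and runs of neighbouring numbers (A, 1 to 8 and 34 to 39; B, 9 to 16 and 40 to 48; C, 17 to 24 and 49 to 58; D, 25 to 32 and 59 to 65; E, 66 to 75; F, 76 to 85; G, 86 to 90; H, 91 to 100) were used as possible batches, whose nature the labels do not give.

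Beta cells of the islet make insulin in very large amounts, and all of it is folded in the ER. When unfolded protein accumulates, 3 membrane sensors, IRE1 (Ern1), PERK (Eif2ak3) and ATF6, start the unfolded protein response: they raise chaperones such as BiP, enzymes of ER-associated degradation, and components of import into and export from the ER, while PERK lowers general translation and raises ATF4 and its targets. Acinar cells, which surround the islets and secrete digestive enzymes, have an even denser ER, and some are carried over when islets are isolated.

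Hspa5 in plain CPM ran from 1933 to 2413 in High, with a median of 2031, and from 513 to 1024 in Low, with a median of 938. The nearest libraries outside the groups were 64 at 1932 CPM and 6 at 1895 CPM below the High set, and 50 at 1041 CPM and 38 at 1044 CPM above the Low set, so the borders of both groups fell within a continuous range. These values chose the groups and are a description. Total counts ran from 16412000 to 34357000 per library over the 95, and the medians were 26553000 in High and 27233000 in Low.

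**Figure D1:**
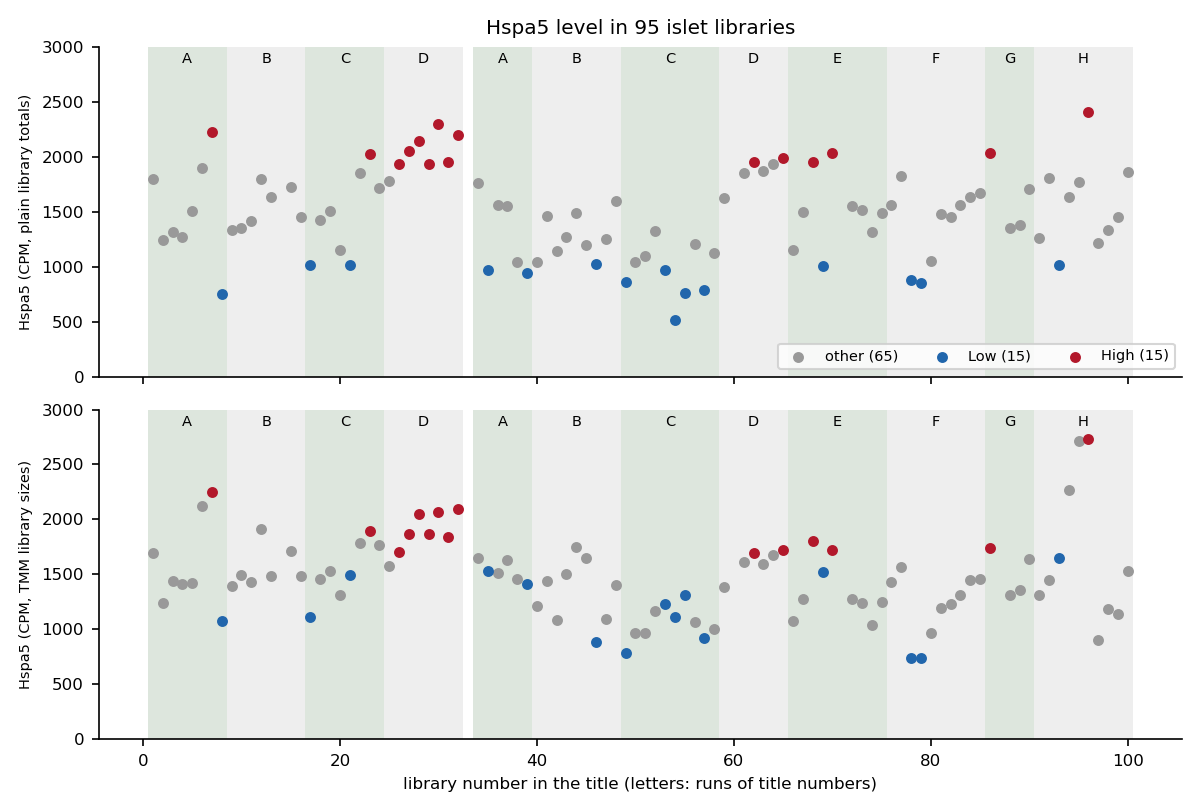
Hspa5 level of each library by the number in its title, in plain CPM (top) and in CPM with TMM library sizes (bottom); shading and letters mark the runs of title numbers. High libraries (red) sit between 1933 and 2413 plain CPM and 9 of the 15 lie in run D; Low libraries (blue) sit between 513 and 1024, with 7 in run C.

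The Low libraries were rich in acinar RNA. The share of counts in 32 acinar marker genes was 1.77% to 52.2% in Low, with a median of 34.1%, and 0.413% to 19.4% in High, with a median of 2.46%; the libraries not chosen had a median of 8.56%. In 11 of the 15 Low libraries the share was above that of every High library, and it passed 25% in 9 Low, 6 unchosen and 0 High libraries. CPM is a share of the total, and in plain CPM the median of all genes was 0.51 higher in High on the log2 scale. TMM scaling in edgeR (library sizes set from a trimmed average of gene ratios, so that most genes are level) brought that median to 0.00. All further levels are CPM with TMM library sizes, and differences are on the log2 scale with a prior count of 2.

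On the TMM scale Hspa5 was 1698 to 2732 CPM in High (median 1866), 737 to 1648 in Low (median 1116) and 898 to 2716 in the libraries not chosen (median 1428). High and Low still did not overlap, but their difference fell from 1.11 to 0.74 on the log2 scale. Had the groups been chosen on this scale, 10 of the 15 High and 6 of the 15 Low libraries would have been the same. In bulk RNA a lower level can come from fewer cells of a type or from less RNA per cell, and these cannot be told apart.

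**Figure D2:**
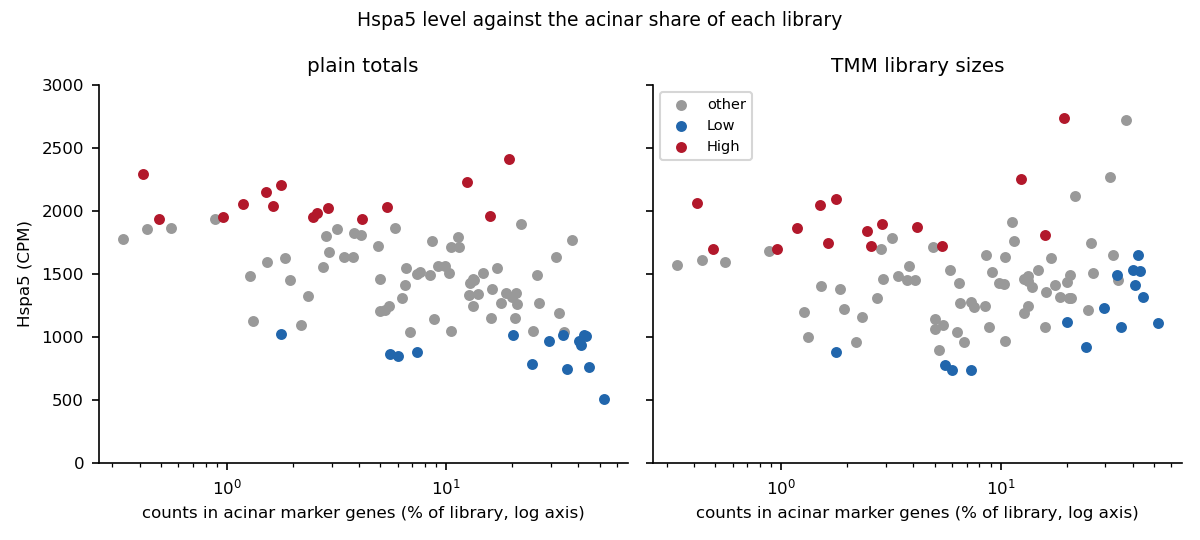
Hspa5 CPM of each of the 95 libraries against its share of counts in acinar marker genes (log axis), with plain totals (left) and TMM library sizes (right). With plain totals most Low libraries (blue) lie at a high acinar share, median 34.1%; with TMM sizes Low libraries cover 737 to 1648 CPM and many unchosen libraries (grey) lie among them.

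The runs were unevenly split. Run D held 9 High and 0 Low libraries and run C held 1 High and 7 Low. Runs B and F held no High library, and D and G no Low one, so the comparison could be made within 4 runs: A (1 High, 3 Low), C (1 and 7), E (2 and 1) and H (1 and 1). Within them the Hspa5 difference on the TMM scale was 0.67, 0.76, 0.21 and 0.73 log2 units. Run and group can be told apart only in these 17 libraries. Runs A to D each join separate stretches of numbers, whose differences neither the within-run values nor the run term remove. Median mitochondrial shares were 1.87% in High and 1.52% in Low, and C1qa, a complement gene of macrophages, was called higher in High (35.8 against 20.8 CPM at the medians) although 0 of the other 11 macrophage markers was. In the libraries not chosen, 7 of the 12 macrophage markers (58.3%) fell with Hspa5 (median slope -0.78), against 17.3% of all genes. The counts were 2 of 12 stellate markers (16.7%, median -0.55) and 3 of 16 lymphocyte markers (18.75%, median -1.40), shares near that of all genes. In these 3 lists 0 markers had a positive slope, against 15.0% of all genes. With the macrophage score as a further term, 25 of 31 chaperone, 22 of 22 import, 31 of 37 ER-Golgi and 17 of 21 degradation genes had a positive slope, against 1742 of all 15765.

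The other genes were described in 2 ways. Between High and Low, a gene was called where its medians differed by at least 1.5-fold and the middle 50% of the libraries of one group lay above that of the other; this is a description, with no test. In the 65 libraries that the rule did not choose, the slope of each gene on Hspa5 (its log2 change for each doubling of Hspa5) was tested. The test was edgeR's quasi-likelihood test with the run as a term, and adjusted p-values (Benjamini-Hochberg over 15765 genes) under 0.05 were called. The rule held plain Hspa5 CPM in these 65 to 1041 to 1932, and TMM Hspa5 is that value divided by the TMM factor of the library. That factor was 0.650 in library 95 (37.4% acinar counts), the highest in TMM Hspa5. In library 97 (5.24% acinar counts), the lowest, the factor was 1.36. The slopes are therefore not free of the rule. The labels do not say whether libraries are separate animals, and the p-values therefore measure only the spread between these libraries. Over all genes tested, 680 (4.31%) were called higher and 865 (5.49%) lower in High, and in the other 65 libraries 2369 (15.0%) had a positive and 2723 (17.3%) a negative slope. Of the 680 genes called higher, 307 had a positive and 29 a negative slope; of the 865 called lower, 210 had a positive and 200 a negative slope. On plain Hspa5 CPM, positive slopes numbered 16 of 31 chaperone, 17 of 22 import, 24 of 37 ER-Golgi and 10 of 21 degradation genes, and 1180 of all genes. Of the genes described here, Creld2, Fkbp11, Xbp1, Wfs1, Derl3, Syvn1, Herpud1, Mcfd2, Neurod1, Atf3, Junb, Cdkn1a and Arid5a then did not pass. Others, given below with their values, turned negative. Without run H the slopes of Wfs1, Spcs3, Ero1lb, Neurod1 and Pcsk1 did not pass, nor did those of further genes named below. Without run C those of Vgf and Arid5a did not. Agreement over runs had its own background: 2610 genes (16.6%) were higher and 2407 (15.3%) lower in High in all 4 runs.

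Several ER genes share a promoter element with Hspa5. The ER stress response element, CCAAT and CCACG spaced by 9 bases, is bound by NF-Y together with ATF6 and XBP1, and was searched on both strands in the 250 bases before each RefSeq start (build GRCm38.p6). It was present for 35 of 27025 genes (0.13%), and for 7 of the 26 ER chaperone genes with a window (26.9%), Hspa5 included. Those stretches are shown first because they are the sequence counterpart of the gene the libraries were ranked by, with the element in capitals and 10 bases on each side, read 5′ to 3′ along the gene's own strand. In Calr, Creld2 and the second copy in Hsp90b1 it lies on the opposite strand and reads CGTGG before ATTGG.
Hspa5, chr2:34772015-34772053, + strand: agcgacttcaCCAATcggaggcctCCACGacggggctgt
Hsp90b1, chr10:86705523-86705666, - strand: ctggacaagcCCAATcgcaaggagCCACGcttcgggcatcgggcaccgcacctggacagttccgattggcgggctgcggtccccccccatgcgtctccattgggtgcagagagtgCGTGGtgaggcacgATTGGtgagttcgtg
Calr, chr8:84847065-84847103, - strand: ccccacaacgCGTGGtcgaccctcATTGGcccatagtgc
Canx, chr11:50325790-50325828, - strand: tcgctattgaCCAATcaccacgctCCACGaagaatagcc
Pdia6, chr12:17266481-17266519, + strand: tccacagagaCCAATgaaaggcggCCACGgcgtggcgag
Dnajc3, chr14:118937817-118937855, + strand: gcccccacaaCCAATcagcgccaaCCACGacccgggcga
Creld2, chr15:88819510-88819548, + strand: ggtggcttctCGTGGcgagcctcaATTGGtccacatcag

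Of the 12 genes of ER-associated degradation with a window, 2 held the element (16.7%). They are Derl3, a derlin of the retrotranslocation complex, and Syvn1, the ubiquitin ligase HRD1.
Derl3, chr10:75893232-75893270, + strand: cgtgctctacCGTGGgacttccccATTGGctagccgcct
Syvn1, chr19:6046522-6046560, + strand: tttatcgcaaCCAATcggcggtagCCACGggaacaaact

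No match was found for the 15 genes of ER import, the 32 of ER-Golgi transport, the 16 of the insulin granule or the 25 PERK-ATF4 targets with a window. A second motif, TGACGTGG, known as an XBP1 and ATF6 site, was present for 163 of the 27025 genes (0.603%), 5 of the 32 ER-Golgi genes (15.6%: Copb1, Gbf1, Kdelr3, Sec16b and Sec24d), 2 of the 12 degradation genes (Ube2j1 and Vcp) and 2 of the 26 chaperone genes (7.69%: Txndc5 and Txndc11), and for 0 of the 15 import, 16 granule and 25 PERK-ATF4 genes. A pair of examples is given because both genes are described below, with the motif in capitals, read as CCACGTCA where it lies on the opposite strand.
Ube2j1, chr4:33031302-33031329, + strand: gaagcgcccgCCACGTCAggccgacttc
Sec24d, chr3:123267460-123267487, + strand: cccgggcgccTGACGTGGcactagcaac

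A match is a run of letters and not a measured binding site.

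Among ER chaperones and folding enzymes, levels followed Hspa5 in the libraries that were not chosen, while few passed the 1.5-fold rule between High and Low. Of the 31 genes tested, 22 had a positive and 0 a negative slope in the 65 libraries, against 15.0% and 17.3% of all genes, and the median slope was 0.35 against -0.03 over all genes. Between High and Low, 1 was called higher and 1 lower, close to the 4.31% and 5.49% of all genes, with a median difference of 0.15; 23 of the 31 had a positive difference. In plain CPM, the scale of the selection, 20 of the 31 were called higher and 0 lower, where 4555 of all 15765 genes were called higher. Without the Low libraries above 25% acinar counts 6 were called higher and 0 lower. With groups chosen on the TMM scale 5 and 0 were, against 680 and 701 of all genes. After centring on run medians 0 and 0 were, against 91 and 248 of all genes. Within runs, 11 (35.5%) were higher in High in all 4 and 5 (16.1%) were lower in all 4, against 16.6% and 15.3% of all genes.

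Dnajb9 (ERdj4), a co-chaperone that works with BiP, was the chaperone gene called higher. Its level was 208 to 497 CPM in High (median 372) and 110 to 295 in Low (median 175), a difference of 1.09, and 13 of the 15 High libraries lay above every Low one. In the other 65 libraries its slope was 0.99 ± 0.11 (SE; adjusted p = 5.31e-10, edgeR quasi-likelihood test), so that it rose nearly in proportion to Hspa5.

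Pdia3, the disulfide isomerase that folds glycoproteins held by calnexin and calreticulin, differed by less but more evenly. It was 745 to 1005 CPM in High (median 879) and 532 to 712 in Low (median 653), with no overlap between the groups, and its difference was 0.43. Only 3 of the 15765 genes (0.0190%) had all 15 High above all 15 Low libraries: Pdia3, the gene model Gm7292, and Ufl1, the ligase that attaches the modifier UFM1 to ribosomes at the ER. Another 3 (0.0190%) had all High below all Low libraries. Ufl1 was 85.9 to 106 CPM in High (median 96.6) and 65.0 to 85.9 in Low (median 72.6), and its slope in the other 65 was 0.48 ± 0.06 (SE; adjusted p = 1.71e-08, edgeR quasi-likelihood test).

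Hyou1 (GRP170), which exchanges the nucleotide of BiP, was 654 to 1083 CPM in High (median 780) and 458 to 860 in Low (median 559). Manf, a secreted and ER-held stress protein that binds BiP, was 184 to 246 CPM in High (median 205) and 95.8 to 217 in Low (median 142). Both groups overlapped for each gene, and the differences were 0.48 and 0.54. Their slopes in the other 65 were among the steepest of the list, 0.63 ± 0.07 for Hyou1 (adjusted p = 1.58e-09) and 0.73 ± 0.08 for Manf (adjusted p = 3.43e-10, edgeR quasi-likelihood test).

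The 6 other chaperone genes with the element in the shown stretches split. Hsp90b1 (GRP94) had a slope of 0.30 ± 0.07, Pdia6 of 0.37 ± 0.08, Dnajc3, an inhibitor of PERK-type kinases and BiP co-chaperone, of 0.53 ± 0.07, and Creld2 of 0.50 ± 0.12, each past the threshold with adjusted p-values of 0.00101 or below. The lectin chaperones Calr (0.14 ± 0.07, adjusted p = 0.136) and Canx (0.10 ± 0.06, adjusted p = 0.208, edgeR quasi-likelihood test) did not pass. Calr nevertheless had 10 of 15 High libraries above every Low library, at 623 to 724 CPM (median 671) against 486 to 655 (median 543), while Canx overlapped widely at medians of 443 and 432 CPM. Between High and Low these 6 differed by 0.04 to 0.31 log2 units, and none was called. Derl3 and Syvn1, the degradation genes with the element, had slopes of 1.03 ± 0.20 and 0.47 ± 0.09 (SE).

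Ppib, the ER cyclophilin B, and Fkbp11, a proline isomerase of secretory cells, went the other way between the groups. Ppib was 53.1 to 98.7 CPM in High (median 58.4) and 45.5 to 242 in Low (median 119) and was the 1 chaperone gene called lower, at -1.02. Fkbp11 was 20.0 to 38.4 CPM in High (median 26.2) and 18.1 to 77.2 in Low (median 46.4), a difference of -0.82 that was not called. The Low groups of both genes spread widely, and both genes were lower in High in all 4 runs. The slopes in the other 65 libraries were positive, 0.51 ± 0.13 for Ppib (adjusted p = 0.00153) and 1.02 ± 0.17 for Fkbp11 (adjusted p = 1.03e-05, edgeR quasi-likelihood test). Without the 9 Low libraries that had over 25% acinar counts, the difference of Ppib turned to 0.11, and with groups chosen on the TMM scale it was 0.12. Its slope was -0.11 on plain Hspa5 CPM. The part of acinar RNA in it was not otherwise tested.

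**Figure D3:**
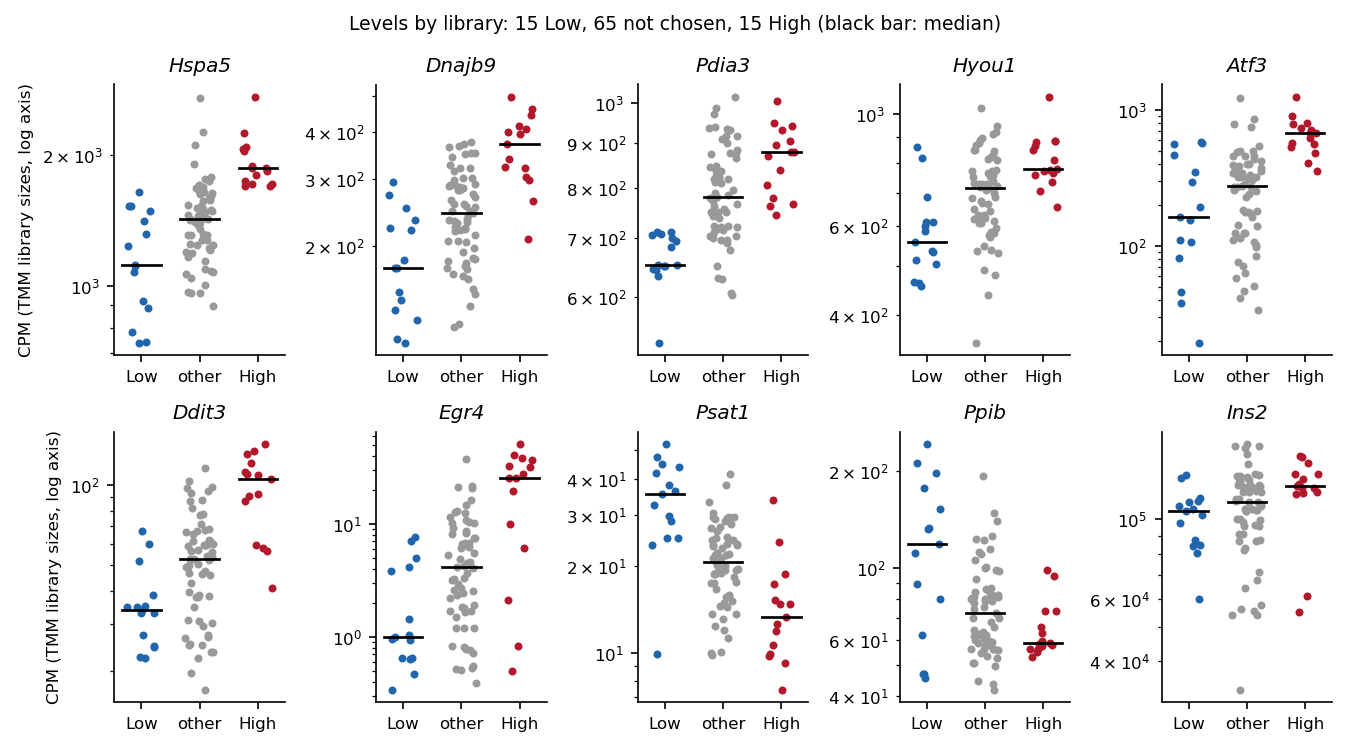
Levels (CPM with TMM library sizes, log axes) of 10 genes in each library, by Low (blue, 15), not chosen (grey, 65) and High (red, 15); black bars are medians. Pdia3 does not overlap between High and Low, Atf3, Ddit3 and Egr4 are higher in High with some overlap, and Psat1 and Ppib are lower in High with a wide Low group for Ppib.

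Of the 11 sensors and transcription factors of the unfolded protein response, 0 were called between High and Low, and their median difference was -0.01. In the other 65 libraries 7 of the 11 had a positive slope and 0 a negative one, against 15.0% and 17.3% of all genes. Eif2ak3 (PERK) was at medians of 79.2 CPM in High and 82.0 in Low, with overlapping ranges of 64.3 to 110 and 51.3 to 115, and had a slope of 0.56 ± 0.06 (adjusted p = 1.58e-09, edgeR quasi-likelihood test). Xbp1, whose mRNA is spliced by IRE1 (total Xbp1 is counted here), had a slope of 0.47 ± 0.06 and Atf6 of 0.38 ± 0.06. Ern1 (IRE1) itself had a slope of -0.07 ± 0.10 (adjusted p = 0.644), at 122 to 235 CPM in High (median 169) and 115 to 277 in Low (median 212). Wfs1, the ER membrane protein mutated in Wolfram syndrome, and Creb3l2, a relative of ATF6 that acts on secretory genes, were the 2 members with the largest positive differences, 0.53 and 0.25, and had slopes of 0.39 ± 0.10 and 0.42 ± 0.06.

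Protein import into the ER followed Hspa5 most uniformly. Of 22 genes for the signal recognition particle, its receptor, the Sec61 channel, the translocon-associated SSR complex and signal peptidase, 21 had a positive slope and 0 a negative one in the other 65 libraries, with a median of 0.43. Among all genes 15.0% and 17.3% had such slopes. Ssr3 (TRAP gamma) was 260 to 409 CPM in High (median 301) and 177 to 372 in Low (median 216), and its slope was 0.59 ± 0.06 (adjusted p = 2.46e-11, edgeR quasi-likelihood test). Srpr, the receptor of the signal recognition particle, was 401 to 605 CPM in High (median 538) and 353 to 535 in Low (median 441), with 8 High libraries above every Low one, and a slope of 0.54 ± 0.06. Spcs3, a signal peptidase subunit, was the 1 member called higher between the groups, at 209 to 416 CPM in High (median 333) against 192 to 272 in Low (median 221); its difference was 0.59 over all libraries and a mean of 0.16 within runs. That 1 call was 4.55% of the list, against 4.31% of all genes. The median difference of the list was 0.21, and 8 members (36.4%) were higher in High in all 4 runs, against 16.6% of all genes.

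Transport between the ER and the Golgi behaved alike. Of 37 genes for COPII and COPI coats, cargo receptors and tethers, 33 had a positive and 0 a negative slope, with a median of 0.36. Among all genes 15.0% and 17.3% had such slopes. Between High and Low 0 of the 37 were called, and their median difference was 0.24. In plain CPM 30 were called higher (median 0.74, against 0.51 for all genes), where 4555 of all 15765 genes were. Without the Low libraries above 25% acinar counts 4 were called higher. Within runs 18 were higher in High in all 4 runs against 16.6% of all genes. Arf4, a small GTPase of the early secretory pathway, had the smallest p of all 15765 genes: its slope was 0.54 ± 0.04 (adjusted p = 1.37e-16, edgeR quasi-likelihood test), and it was 148 to 206 CPM in High (median 171) and 97.7 to 176 in Low (median 140). Sar1a, the GTPase that starts the COPII coat, was 201 to 306 CPM in High (median 255) and 154 to 228 in Low (median 188), with 10 High libraries above every Low one and a slope of 0.54 ± 0.05. Sec24d, a cargo-binding COPII subunit whose promoter stretch is shown above, was 116 to 208 CPM in High (median 172) and 92.1 to 172 in Low (median 130), and had a slope of 0.53 ± 0.06. Mcfd2, a partner of the cargo receptor LMAN1, differed in the opposite sense, with medians of 73.4 CPM in High and 117 in Low, lower in all 4 runs, but a positive slope of 0.68 ± 0.10.

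The 10 genes with the smallest p and a positive slope came mostly from this machinery although all genes were ranked. After Arf4 they were Selk (selenoprotein K) and Vimp (selenoprotein S) of ER-associated degradation, Sar1a, Rab1a, a GTPase of ER-Golgi traffic, Tfg, which organises ER exit sites, Gmppb, which makes GDP-mannose for glycosylation, Paip2b, a translation repressor, Ube2j1, a ubiquitin-conjugating enzyme of ER degradation, and Ssr3. Their slopes ran from 0.39 (Ube2j1) to 0.92 (Gmppb). Gmppb was 51.0 to 96.8 CPM in High (median 84.1) and 26.3 to 71.6 in Low (median 54.2), and was also called higher. The 10 with the smallest p and a negative slope (Mov10, Rgs3, Jade2, Tec, Gpr137b, D930015E06Rik, Git2, Prkd2, Ypel3 and Arrdc1) ran from -0.39 to -0.92 and held no member of the ER lists. The steepest, Mov10, an RNA helicase, was 8.62 to 19.0 CPM in High (median 11.2) and 11.5 to 22.0 in Low (median 15.4).

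ER-associated degradation and N-glycosylation followed the same order. Of 21 degradation genes 19 had a positive slope and 0 a negative one (median 0.33), and of 24 glycosylation genes 17 and 0 (median 0.26). Among all genes 15.0% and 17.3% had such slopes. Herpud1, a stress-induced member of the HRD1 complex, was 355 to 598 CPM in High (median 459) and 164 to 699 in Low (median 355), and its slope of 0.98 ± 0.13 (adjusted p = 4.20e-08, edgeR quasi-likelihood test) was near that of Dnajb9. Selk was 97.5 to 152 CPM in High (median 132) and 63.2 to 114 in Low (median 92.0), with 12 High libraries above every Low one. Dpm1, which makes dolichol-phosphate-mannose, was the 1 glycosylation gene called higher (4.17%, against 4.31% of all genes), at 23.6 to 56.5 CPM in High (median 35.6) and 16.4 to 33.2 in Low (median 21.5). Rpn2, a subunit of the oligosaccharyltransferase, had a slope of 0.18 ± 0.07 that did not pass (adjusted p = 0.0518).

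Sel1l, the scaffold of the HRD1 complex, and Edem1, a mannosidase-like protein of the same pathway, were the 2 degradation genes called, and both were lower in High. They were 9.52% of the list, against 5.49% of all genes. Sel1l was 125 to 249 CPM in High (median 152) and 117 to 810 in Low (median 452), a difference of -1.57. Edem1 was 84.6 to 145 CPM in High (median 106) and 69.2 to 411 in Low (median 178), a difference of -0.75. Their slopes in the other 65 libraries were positive, 0.84 ± 0.17 and 0.33 ± 0.09, but neither passed without run H and both were negative on plain Hspa5 CPM (-0.31 and -0.089). Without the Low libraries of over 25% acinar counts Edem1 differed by 0.07, and Sel1l by -0.34, and 4 degradation genes were then called higher and 0 lower.

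**Figure D4:**
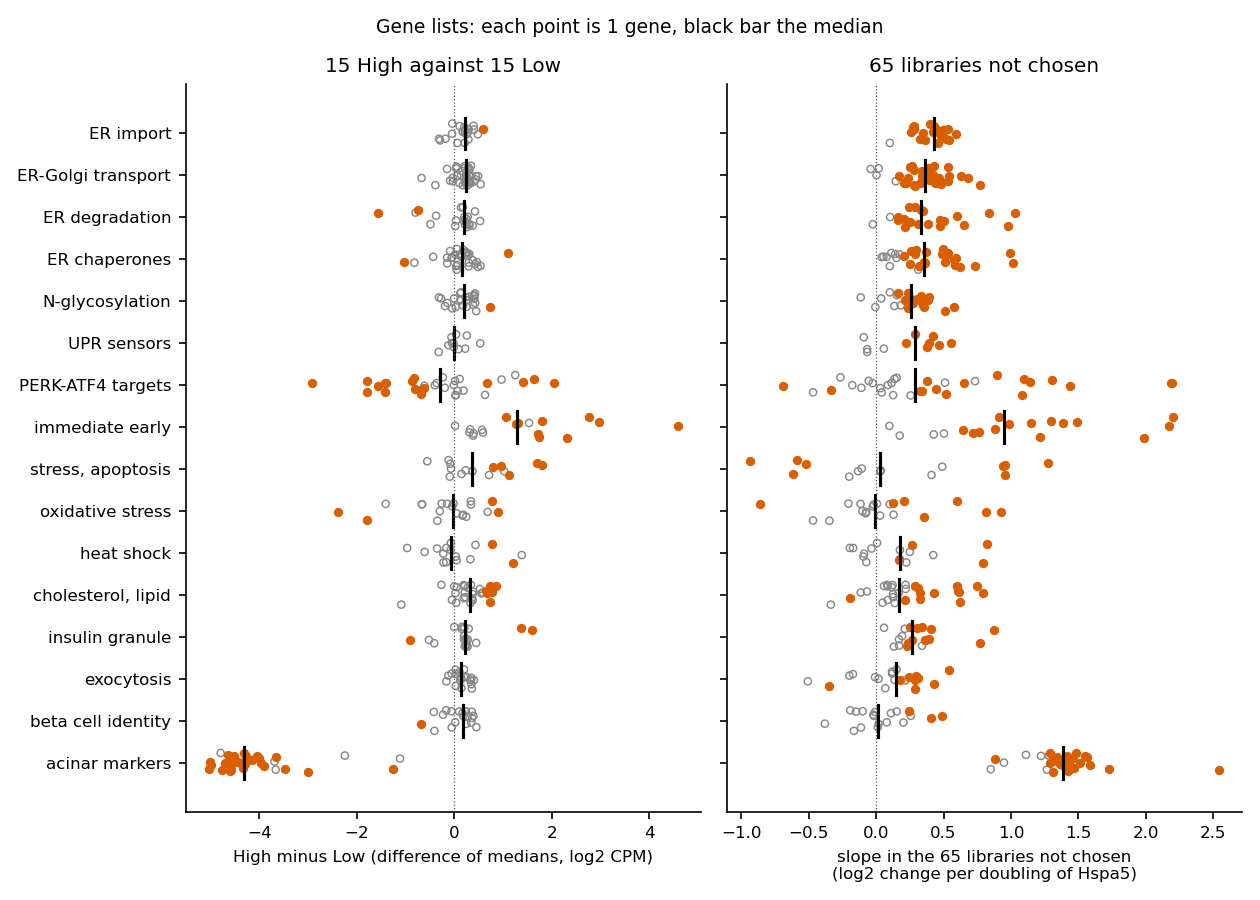
Each point is 1 gene of the list at left: its High minus Low difference of medians (left panel, log2 CPM) and its slope on Hspa5 in the 65 libraries not chosen (right panel, log2 change per doubling of Hspa5). Orange points are called (left, 1.5-fold with middle 50% ranges apart; right, adjusted p under 0.05), open points are not, and black bars are medians. ER lists sit at small positive median differences, except the sensors of the unfolded protein response at -0.01, and at median slopes of 0.26 to 0.43. Acinar markers sit near -4.32 on the left and 1.39 on the right.

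The acinar markers themselves changed sign between the comparisons. All 32 were lower in High than in Low in all 4 runs, against 15.3% of all genes, with a median difference of -4.32. Of the 32, 27 were called lower, against 5.49% of all genes. With groups chosen by Hspa5 on the TMM scale 0 were called and the median difference was -0.33. Ctrb1, a chymotrypsinogen, was 464 to 27167 CPM in High (median 2129.9) and 2875 to 100950 in Low (median 41546). In the other 65 libraries 26 of the 32 had a positive slope, against 15.0% of all genes, with a median of 1.39. That count rested on few libraries. Library 95 had 37.4% acinar counts and the highest Hspa5 of the 65 at 2716 CPM, and without it 3 members had a positive slope, without library 97, the lowest of the 65 in Hspa5, 5 did, without run H 2 did and without run C 5 did. Over all 15765 genes those settings gave 1883, 1917, 1445 and 1919 positive slopes. With the acinar score (the mean z-scored level of the list) as a further term, 23 of 31 chaperones and 22 of 22 import genes had a positive slope. So did 32 of 37 ER-Golgi and 17 of 21 degradation genes, against 1985 of all genes. Genes of the amylase, trypsin and elastase families are near-identical copies whose reads the counting could split, so their single values are uncertain.

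Targets of the PERK branch split in 2. Of 32 genes in the list, 4 were called higher in High and 13 lower, against 4.31% and 5.49% of all genes, and the median difference was -0.30. In plain CPM 9 were called higher and 6 lower, against 4555 and 313 of all 15765 genes. The list median was then 0.23, below the 0.51 of all genes. Centring on run medians gave 3 and 3, against 91 and 248 of all genes. In the other 65 libraries 14 had a positive and 2 a negative slope (43.75% and 6.25%, against 15.0% and 17.3% of all genes). The counts were 8 and 4 without run H, against 1445 and 1633 of all 15765 genes. On plain Hspa5 CPM they were 3 and 6, against 1180 and 1040. The 4 called higher were Atf3, Ddit3, Ppp1r15a and Atf4. Atf4, the transcription factor of the branch, was 300 to 614 CPM in High (median 461) and 216 to 445 in Low (median 291), a difference of 0.67, with a slope of 0.65 ± 0.09 (adjusted p = 3.05e-07, edgeR quasi-likelihood test). Ddit3 (CHOP), linked to beta cell death under ER stress, was 41.1 to 142 CPM in High (median 105) and 22.3 to 67.2 in Low (median 33.7), a difference of 1.64. In 11 of 15 High libraries Ddit3 lay above every Low library, and its slope was 1.10 ± 0.18 (adjusted p = 6.50e-06, edgeR quasi-likelihood test). All High libraries of run D, which holds no Low library, were among the 11, at 87.2 to 142 CPM. The unchosen run D libraries were at 62.0 to 115 CPM. High libraries 7, 68, 70 and 86, of runs A, E and G, were at 41.1 to 59.5 CPM.

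Atf3, a stress-induced repressor, was 358 to 1255 CPM in High (median 676) and 19.5 to 583 in Low (median 163), the larger difference at 2.05, with a slope of 2.19 ± 0.37. Within runs the mean Atf3 difference was 0.76, from 0.079 in run E and 0.22 in run A to 1.64 in run C. In run C, Atf3 was 487 CPM in High library 23 and 298 and 565 in Low libraries 17 and 21. It was 46.3 to 163 in the run C Low libraries numbered 49 or above. Ppp1r15a (GADD34), which reverses the translational block set by PERK, was 355 to 786 CPM in High (median 601) and 94.3 to 528 in Low (median 226), with a slope of 1.14 ± 0.20. All 4 were higher in High in all 4 runs. Atf3 and Ppp1r15a are also raised by many signals outside the ER.

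The 13 members called lower were Aldh1l2, Asns, Cth, Eif4ebp1, Gpt2, Mthfd2, Nupr1, Pck2, Phgdh, Psat1, Shmt2, Slc7a11 and Slc7a3. Psat1 was 7.42 to 33.7 CPM in High (median 13.2) and 9.91 to 52.6 in Low (median 35.4), and Phgdh, the step before it in serine synthesis, was 10.4 to 72.7 CPM in High (median 33.6) and 30.6 to 208 in Low (median 89.6). Asns, asparagine synthetase, was 80.1 to 144 CPM in High (median 101) and 114 to 270 in Low (median 177), with 10 of 15 High libraries below every Low one. Eif4ebp1, a translation repressor, had 13 High libraries below every Low library, at 8.94 to 25.7 CPM (median 12.5) against 20.3 to 55.9 (median 33.8). All 13 called members were lower in High in all 4 runs.

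In the 65 unchosen libraries these 13 genes had slopes of either sign. Psat1 had a slope of 0.04 ± 0.17 (adjusted p = 0.879), Eif4ebp1 of 0.11 ± 0.19 (adjusted p = 0.671) and Mthfd2, a mitochondrial folate enzyme, of -0.06 ± 0.13 (adjusted p = 0.782). Asns (0.45 ± 0.13, adjusted p = 0.00714), Nupr1 (1.44 ± 0.40, adjusted p = 0.00417), a stress-induced nuclear protein abundant in acinar cells, and Cth (2.19 ± 0.48, adjusted p = 0.000399, edgeR quasi-likelihood test), which makes cysteine, had positive slopes. On plain Hspa5 CPM all 3 turned negative (-0.26, -0.79 and -0.66, none past the threshold), and without run H Asns was at -0.068 and neither Nupr1 nor Cth passed. With the acinar score in the model, 8 members of the list had a positive and 3 a negative slope, against 1985 and 2048 of all 15765 genes. With groups chosen on the TMM scale 7 were called higher and 4 lower, against 680 and 701 of all genes. Without the Low libraries of over 25% acinar counts the counts were 6 and 9. The acinar share moved with these differences between High and Low, and its part in them was not tested beyond those values.

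Immediate early genes, mostly transcription factors, which respond within minutes to calcium, growth factors or handling, showed the largest difference of any pathway list. Of 18 genes 10 were called higher and 0 lower in High, against 4.31% and 5.49% of all genes, with a median difference of 1.29. In the other 65 libraries 14 had a positive and 0 a negative slope, against 15.0% and 17.3% of all genes, with a median of 0.95. After centring on run medians 3 were called higher (median 0.41) and without run D 6 (median 0.87), and on plain Hspa5 CPM 7 had a positive slope. Over all 15765 genes those counts were 91, 329 and 1180. Egr4 was 0.498 to 51.0 CPM in High (median 25.7) and 0.338 to 7.62 in Low (median 1.01), the largest difference in the list at 4.58. For Egr4, 11 High libraries were above every Low one, while the lowest High libraries were at the level of Low. The 11 included all run D High libraries (19.7 to 51.0 CPM), but the unchosen run D libraries were also above every Low one, at 12.5 to 37.85 CPM. Within runs the mean Egr4 difference was 2.15, from 0.99 in run E to 3.80 in run C. In run C, Egr4 was 10.1 CPM in High library 23 and 3.84 and 4.96 in Low libraries 17 and 21. It was 0.338 to 1.04 in the run C Low libraries numbered 49 or above, so 3.80 also spans the separate stretches of that run. Fosl1 was 1.62 to 32.96 CPM in High (median 8.20) and 0.529 to 9.86 in Low (median 1.16), with a slope of 2.20 ± 0.40 (adjusted p = 2.31e-05, edgeR quasi-likelihood test). Junb was 879 to 2191 CPM in High (median 1540) and 200 to 1283 in Low (median 638), with 10 High libraries above every Low one. Fos itself did not differ in its median, at 1984 CPM in High and 1963 in Low, and had a slope of 0.10 ± 0.23 (adjusted p = 0.775).

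As a share of counts, the 18 immediate early genes took 1.13% to 2.53% of a High library (median 1.70%) and 0.348% to 1.63% of a Low one (median 0.818%). Over all genes with a median of at least 10 CPM, the 5 largest positive differences went to Gm10260, Gm8210, Gm6969, Gm15487 and Atp5g2, of which 0 had a called slope. The next were Maff, a small MAF transcription factor (276 against 37.8 CPM at the medians, slope 2.26 ± 0.38), Arid5a (73.0 against 10.1), Itpkc, which phosphorylates inositol trisphosphate (99.1 against 14.8, slope 2.19 ± 0.30), 4930539E08Rik, and Dusp5, a phosphatase of ERK (361 against 59.4). Gm10260 was 0.656 to 88.9 CPM in High and 0.113 to 89.6 in Low, higher in High in 1 of the 4 runs, and Gm12918, at the other end, was lower in all 4 but had a slope of -0.20 ± 0.37. Gene models of this kind can share reads with near-identical copies, and their values are uncertain.

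Among 15 genes of stress-linked apoptosis, 5 (33.3%) were called higher and 0 lower, against 4.31% and 5.49% of all genes. Slopes in the other 65 libraries were positive for 4 (26.7%) and negative for 4 (26.7%), against 15.0% and 17.3%. Without run H they were positive for 6 and negative for 1, against 1445 and 1633 of all 15765 genes. After centring on run medians 2 were called higher, against 91 of all 15765 genes. Gadd45b was 70.2 to 196 CPM in High (median 173) and 13.1 to 124 in Low (median 53.3), and Cdkn1a (p21), which halts the cell cycle, 49.3 to 204 (median 110) and 28.0 to 130 (median 50.7). Both had positive slopes, 1.28 ± 0.27 and 0.95 ± 0.24. Sqstm1 (p62), a receptor of selective autophagy in the oxidative stress list, was 343 to 1075 CPM in High (median 686) and 263 to 705 in Low (median 368), with a slope of 0.81 ± 0.12 (adjusted p = 2.37e-07, edgeR quasi-likelihood test). Prdx4, the ER peroxiredoxin, was 10.8 to 50.3 CPM in High (median 14.3) and 15.6 to 151 in Low (median 75.1). Its slope was nevertheless positive, 0.93 ± 0.24 (adjusted p = 0.00218, edgeR quasi-likelihood test), and turned negative on plain Hspa5 CPM.

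Of 16 genes for cytosolic and mitochondrial heat shock proteins, 2 (12.5%) were called higher (Dnajb1 and Bag3) and 0 lower, against 4.31% and 5.49% of all genes. A positive slope was found for 4, which is 25.0% against 15.0% of all genes. Without run H it was found for 1, against 1445 of all 15765 genes. Hspa8, the constitutive Hsp70, was 785 to 1573 CPM in High (median 933) and 757 to 1470 in Low (median 1090), with a slope of 0.22 ± 0.11 (adjusted p = 0.123). Hspa8 was nevertheless higher in High in all 4 runs, by a mean of 0.37, so that the sign of its difference depended on the runs.

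Sterol genes are governed by SREBP factors, which are matured between the ER and the Golgi. Of 29 genes of cholesterol and fatty acid synthesis 6 were called higher and 0 lower in High, against 4.31% and 5.49% of all genes, and 12 had a positive and 1 a negative slope, against 15.0% and 17.3%. In plain CPM 21 were called higher, against 4555 of all 15765 genes, and after centring on run medians 0 were, against 91. Hmgcs1, at the head of the sterol pathway, was 52.1 to 125 CPM in High (median 87.1) and 34.8 to 77.0 in Low (median 48.5), with a slope of 0.75 ± 0.13 (adjusted p = 9.27e-06, edgeR quasi-likelihood test). Idi1 was 14.4 to 34.6 CPM in High (median 24.4) and 9.95 to 23.3 in Low (median 14.2). Acly, which supplies acetyl-CoA and had the highest median of the list, was at 1278 and 1122 CPM with a slope of 0.12 ± 0.09 (adjusted p = 0.297).

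The insulin program showed small differences. Ins2 was 54833 to 150830 CPM in High (median 124240) and 59806 to 133150 in Low (median 105190), and Ins1 was at medians of 48356 and 41015; both differed by 0.24 with overlapping groups. In the other 65 libraries the slopes were 0.34 ± 0.15 for Ins2 (adjusted p = 0.0677) and 0.27 ± 0.13 for Ins1 (adjusted p = 0.106, edgeR quasi-likelihood test), and neither passed. Of 20 genes of the insulin granule and prohormone processing, 12 (60.0%) had a positive and 0 a negative slope, against 15.0% and 17.3% of all genes. This count fell to 3 without run H, 6 without library 97, 8 without library 95 and 7 without run B, so that it depended on few libraries. Between High and Low 2 were called higher and 1 lower (10.0% and 5.0%, against 4.31% and 5.49% of all genes). In all 4 runs 13 of the 20 (65.0%) were higher in High, against 16.6% of all genes, with a median within-run difference of 0.28.

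Vgf and Scg5, both made into or acting on granule peptides, were the 2 called higher. Vgf, a granin-like precursor, was 2.75 to 141 CPM in High (median 61.0) and 3.47 to 34.5 in Low (median 20.1), with 12 High libraries above every Low one and a slope of 0.87 ± 0.27 (adjusted p = 0.0116, edgeR quasi-likelihood test). Scg5 (7B2), the chaperone of the prohormone convertase PC2, was 528 to 1268 CPM in High (median 1135) and 327 to 868 in Low (median 440). For Scg5 the difference of 1.37 over all libraries was a mean of 0.33 within runs. Pcsk1, the convertase PC1/3, was 268 to 486 CPM in High (median 384) and 207 to 350 in Low (median 313) and had a slope of 0.40 ± 0.10 (adjusted p = 0.00106). Qsox1, a sulfhydryl oxidase, was lower, with 14 of 15 High libraries below every Low one (34.5 to 99.3 against 77.4 to 187 CPM), yet had a positive slope of 0.36 ± 0.09, which did not pass without run H and was -0.10 on plain Hspa5 CPM.

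Of 20 genes of beta cell identity, 3 had a positive slope (15.0%, as among all genes) and 0 a negative one (17.3% among all genes), and their median slope was 0.02. Without run H the counts were 0 and 6 (median -0.15), against 1445 and 1633 of all 15765 genes. With all 65 libraries those 3 were Neurod1 (0.40 ± 0.11), Pax6 (0.24 ± 0.10) and Ero1lb (0.49 ± 0.13), the last an oxidase that is also an ER folding enzyme. Pdx1 was 65.6 to 170 CPM in High (median 116) and 82.6 to 185 in Low (median 154), and Mafa was at medians of 126 and 125. Foxa2, a factor shared by endocrine and exocrine cells, was the 1 member called (5.0%, against 5.49% of all genes), lower in High at 45.1 against 72.1 CPM. Among 20 genes of exocytosis 8 had a positive and 1 a negative slope (40.0% and 5.0%, against 15.0% and 17.3% of all genes). Between High and Low 0 of them were called, and Syt13, the highest of the list, was at 1074 and 988 CPM.

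**Figure D5:**
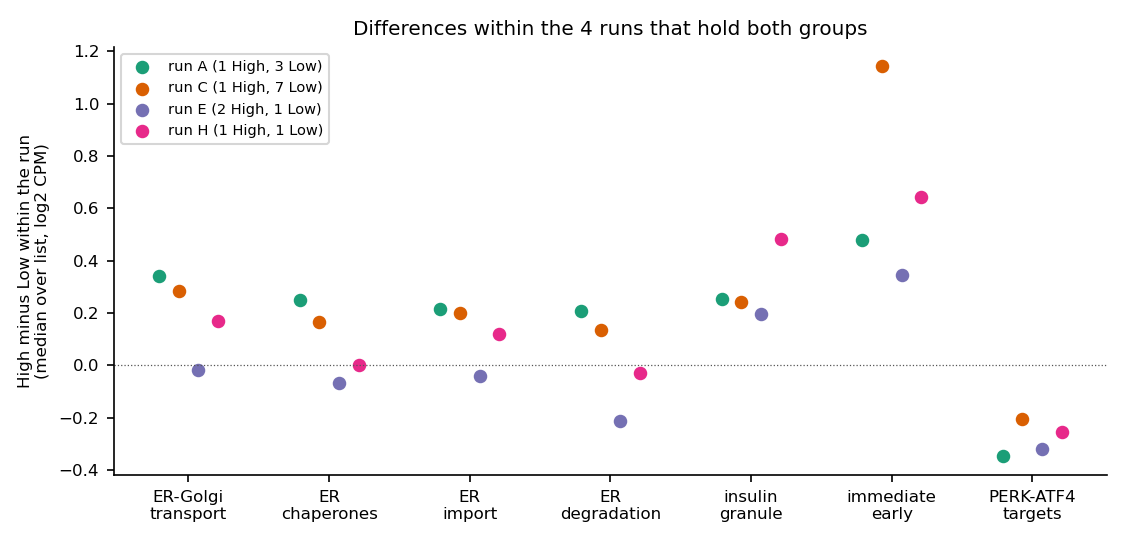
Median High minus Low difference of 7 lists (log2 CPM) within each of the 4 runs that hold both groups; the number of libraries is in the key. Immediate early and insulin granule medians are above 0 and PERK-ATF4 targets below 0 in all 4 runs, while the ER chaperone and degradation medians are above 0 in runs A and C only.

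Within runs, ER lists gave small and uneven differences. The ER-Golgi median was 0.34 in run A, 0.28 in C, -0.02 in E and 0.17 in H. The chaperone median was 0.25 in A, 0.17 in C, -0.07 in E and -0.00 in H, and the degradation median was 0.21, 0.13, -0.21 and -0.03. Run E, with 2 High and 1 Low library, was also the run with the smallest Hspa5 difference on the TMM scale, 0.21. The immediate early median was 0.48, 1.14, 0.34 and 0.64 in runs A, C, E and H, and the acinar median was between -1.67 and -3.73. With so few libraries a run's value rests on 1 or 2 of them on at least 1 side, and no test was made.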

How the data were processed

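The authors deposited estimated counts per gene, made from poly(A) RNA-seq reads per the labels' protocols, for 20638 genes in 95 libraries; 67.7% of its values were whole to within 1e-06. The submitters' processing notes name GRCm38 and DESeq2. The aligner, counting tool and use of strand are not given in the sources used here. The authors' second deposited table holds variance-stabilised values on a scale close to log2, used here only as an alternative.

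Counts were scaled with TMM library sizes (edgeR 4.0.16, R 4.3.3), and a gene had to reach 1 CPM in 10 libraries to be kept (15766 were, Hspa5 among them). For the slopes, counts were rounded to whole numbers and fitted with edgeR's quasi-likelihood test with run as a term; DESeq2 1.42.0 was an alternative. Depth limits the precision of genes near 1 CPM.

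The libraries, runs and gene lists were chosen with earlier results of these data known. Genes named were the ER chaperones and sensors, the highest and the 3 most different members of each other list, the highest and the most different of each marker list, the 10 largest differences each way at a median of at least 10 CPM, and the 10 smallest p each way. Ufl1, Gm7292, Atf4, Ddit3, Psat1, Phgdh, Asns, Eif4ebp1, Mthfd2, Nupr1 and the other called PERK-ATF4 genes, Junb, Fos, Sqstm1, Bag3, Ins1, Pcsk1, Neurod1, Pax6, Pdx1, Mafa, Sec24d and Syvn1 fall outside that rule and were chosen after their values were seen. Promoter windows are RefSeq's.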

Additional observations from a re-analysis of the deposited data

How the results depend on the processing

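The number of genes called between High and Low (680 higher, 865 lower) moved by over 1.5 times under 4 settings. It was 4555 and 313 with plain CPM, which lifts the median of all genes by 0.51, 385 and 387 with the deposited variance-stabilised values, 91 and 248 after centring on run medians, and 329 and 343 without run D, an alternative chosen after seeing the data. The number of slopes (2369 positive, 2723 negative) became 1438 and 1472 with no run term, 1180 and 1040 on plain Hspa5 CPM, and 1445 and 1633 without run H; without library 95, also chosen after seeing the data, the negative count was 1768. The cause was not tested. DESeq2 gave 2413 and 2888. Within runs, plain CPM moved the list medians to 0.72 (chaperones), 0.28 (PERK-ATF4 targets, from -0.30), 1.19 (immediate early), 0.87 (granule) and 0.78 (ER-Golgi), and splitting each run at its median Hspa5 gave -0.10 for PERK-ATF4 targets.

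Some genes changed direction. With groups chosen on the TMM scale, Ppib (0.12), Edem1 (0.12), Cth (0.21) and Nupr1 (0.19) were higher in High, and without libraries above 25% acinar counts Ppib (0.11) and Edem1 (0.071) were. Centred on run medians, Gm10260 was at -0.054. Slopes on plain Hspa5 CPM were negative for Ppib (-0.11), Sel1l (-0.31), Edem1 (-0.089), Qsox1 (-0.10), Cth (-0.66), Asns (-0.26), Eif4ebp1 (-0.78), Nupr1 (-0.79), Prdx4 (-0.52) and Ctrb1 (-1.51). The slope of Ctrb1 was -0.16 with the acinar score as a term, and without run H those of Pax6 and Asns were -0.038 and -0.068. No paired analysis was possible because each library number occurs once. Depth limits genes near 1 CPM, such as Egr4 in Low.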
